A study of Mus musculus with 24 samples.

Results

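The genes that encode voltage-gated and potassium ion channels were followed in gut RNA from mouse embryos lacking Ret, Sema3d or both. They were taken by symbol and biotype: protein_coding rows whose symbol starts with Kcn or Cacn, or with Scn followed by a number and a or b, and that stand in all 4 of the authors' deposited tables. This rule gave 129 channel genes of the 23679 genes shared by the 4 tables, of which 17188 are protein_coding. The 129 comprise 39 pore subunits of voltage-gated potassium (Kv) channels, 13 Kv accessory subunits, 11 genes of calcium- or sodium-activated potassium channels, 15 inward rectifiers and 12 Kcnk channels (2 pore domains per subunit). They also comprise 10 pore and 4 beta subunits of sodium channels, and 9 pore and 16 accessory subunits of calcium channels. Kcnk7, Kcnk15, Kcnmb3 and Cacna1f met the rule in some tables but not in all 4, and were not counted.

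Ion channels are membrane proteins that open a path for ions and so set the electrical behaviour of a cell. Sodium and calcium channels let positive charge in when the membrane is depolarised, potassium channels let it out and return the membrane to rest, and accessory subunits alter the traffic and gating of the pore they bind. In the gut wall, enteric neurons, smooth muscle cells and the pacemaker cells of Cajal each use their own set of channels, and the enteric neurons arise from neural crest cells that need the receptor kinase Ret to colonise the gut.

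Each of the 24 libraries was made from a whole gut at embryonic day 12.5, with 3 female and 3 male guts in each of 4 genotypes: wildtype, Ret null homozygous, Sema3d null homozygous and homozygous for both null alleles (double null). All were of mixed C57BL/6, 129/Sv and C3H strain. The libraries were stranded and selected for polyadenylated RNA, and read as 100 bp pairs. The tables hold the authors' fitted coefficients and tests per gene, so neither values for single guts nor library depths can be given, and every level, change and p given below comes from the authors' deposited tables. A fitted level is in normalised counts, averaged over the sexes. The value after ± is an error derived from the authors' coefficient and deviances. A gene was called when the authors' adjusted p was below 0.05. The Ret transcript changed by -8.34 ± 0.24 log2 in Ret null gut and by -10.36 ± 0.29 in double null gut. The Sema3d transcript changed by -1.06 ± 0.11 in Sema3d null gut and by -1.04 ± 0.07 in double null gut, so that 47.8% and 48.6% of its wildtype level remained. In Ret null gut Sema3d was called lower too, at -0.27 ± 0.06, with 83.1% of its wildtype level left. Smooth muscle, epithelium and endothelium markers were present in the wildtype fits, as a gut sample should show, with summed levels of 11577, 5242 and 4790 normalised counts.

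A potassium channel is recognised in its coding sequence by the selectivity filter of its pore, a glycine, then a tyrosine or phenylalanine, then a glycine. In the longest coding sequence of each gene (GENCODE M21, build GRCm38), an in-frame tyrosine or phenylalanine codon flanked by glycine codons was found in 74 of 74 potassium channel pore genes and in 6 of the 54 other channel genes with a coding sequence. The same pattern of 3 codons occurs in 15% of 17148 protein_coding genes, whose median coding length was 1365 bases against 1530 for the potassium channel pore genes. The stretches below are from 4 potassium channel genes that were called lower in both Ret null and double null gut, shown because they come from different potassium channel families and share this pore. Capitals mark the filter codons, each line has 51 bases of the coding strand, and the first capital G lies in codon 527 of Kcna4, 402 of Kcnc1, 441 of Kcnh4 and 244 of Kcnt2.
Kcna4: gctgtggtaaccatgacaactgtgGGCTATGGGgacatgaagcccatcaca
Kcnc1: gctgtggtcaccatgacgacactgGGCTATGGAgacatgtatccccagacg
Kcnh4: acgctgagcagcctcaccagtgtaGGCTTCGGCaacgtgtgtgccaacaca
Kcnt2: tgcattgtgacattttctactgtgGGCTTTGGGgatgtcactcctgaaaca
The filter is spelled with a tyrosine codon in Kcna4 and Kcnc1 and with a phenylalanine codon in Kcnh4 and Kcnt2.

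Channel genes differed widely in their wildtype level per kb of exon, as fitted in the authors' deposited Ret null table. Among the highest were Cacnb3, a cytoplasmic calcium channel subunit that carries the pore to the membrane, at 288 normalised counts per kb, and Cacng7, of the family of transmembrane gamma subunits, at 240. Lower than these stood Cacna1h, a low-voltage-activated T-type calcium channel pore, at 151, and Kcnh2, the pore of the delayed rectifier known as hERG, at 148. Cacng4, another gamma subunit, stood at 147, Kcnj8, a pore of ATP-sensitive potassium channels, at 135, and Cacna1g, another T-type pore, at 103. Between Kcnj8 and Cacna1g lay 2 further genes, a Kv accessory subunit at 119 and Kcng1, a Kv subunit that modifies other pores, at 115. Sodium channel pores were far lower, with Scn3a at 9.52 and Scn9a at 2.67 normalised counts per kb. Genes close in level were not tested against each other. Of the 129 genes, 49 reached a fitted level of 50 normalised counts in wildtype or Ret null gut, 35 lay between 10 and 50, and 45 were below 10, where the errors are wide (median 0.81 log2, against 0.13 at 50 or more).

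In Ret null gut, 17 of the 129 channel genes were lower and 0 were higher. In the authors' deposited table that is 13.2% of channel genes lower, beside 2.27% of all 24602 rows lower and 0.386% higher. Strong reductions were seen in Scn3b, a sodium channel beta subunit, in Kcnj12, an inward rectifier, and in Cacna1b, the pore of N-type calcium channels. By role, the 17 were 7 of 39 Kv pore subunits, 3 of 9 calcium channel pores, 2 of 10 sodium channel pores, 1 of 4 sodium channel beta subunits, 2 of 16 calcium channel accessory subunits, 1 of 11 calcium- or sodium-activated potassium channels and 1 of 15 inward rectifiers, with none of 13 Kv accessory subunits and none of 12 Kcnk channels, where 0 had an unadjusted p below 0.05 in the authors' DESeq fit. Differences between roles were not tested. At an unadjusted p below 0.05, 24 channel genes were lower and 6 higher, against 5.47% and 2.96% of all rows. The median change over the 124 channel genes with a bounded fit was -0.17 log2, beside 0.00 over all rows. For the 49 channel genes of fitted level at least 50 the median was -0.08, beside 0.01 over all rows of that level, and for those below 10 it was -0.34. Members of higher level were called more often: 10 of 49 at a level of at least 50 (all rows of that level 3.24%), 5 of 35 between 10 and 50 (4.11%) and 2 of 45 below 10 (0.427%).

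Markers of enteric neurons moved with these calls. All 10 neuron markers were lower in the authors' deposited Ret null table, with a median of -4.60 log2 (range -5.83 to -0.94), and their summed level was 373 normalised counts against 3121 in wildtype. Of the 8 markers of glia and crest progenitors 6 were lower too, at a summed level of 1437 against 3455, and S100b stood below 1 normalised count in every fit. None of 8 smooth muscle, 6 epithelium or 6 endothelium markers was called (1, 0 and 0 at an unadjusted p below 0.05 in the authors' DESeq fit). Of the other markers, 1 of 4 interstitial cell markers (Etv1, -0.35 ± 0.09) and 1 of 8 striated muscle markers (Myl1, -4.66 ± 0.49) were lower. The striated muscle list had all 8 markers below 0, a median of -1.25 log2 and a summed level of 121 normalised counts against 251 in wildtype, with 2 markers at an unadjusted p below 0.05 in the authors' DESeq fit. None of 5 macrophage markers was called, but 3 had an unadjusted p below 0.05 in the authors' fit, and their median was -0.34 log2 at a summed level of 574 against 695. Fewer cells of a type and less RNA per cell cannot be told apart in whole gut, and the part of the neuron, glia, muscle and macrophage markers in the channel results was not tested.

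**Figure D1:**
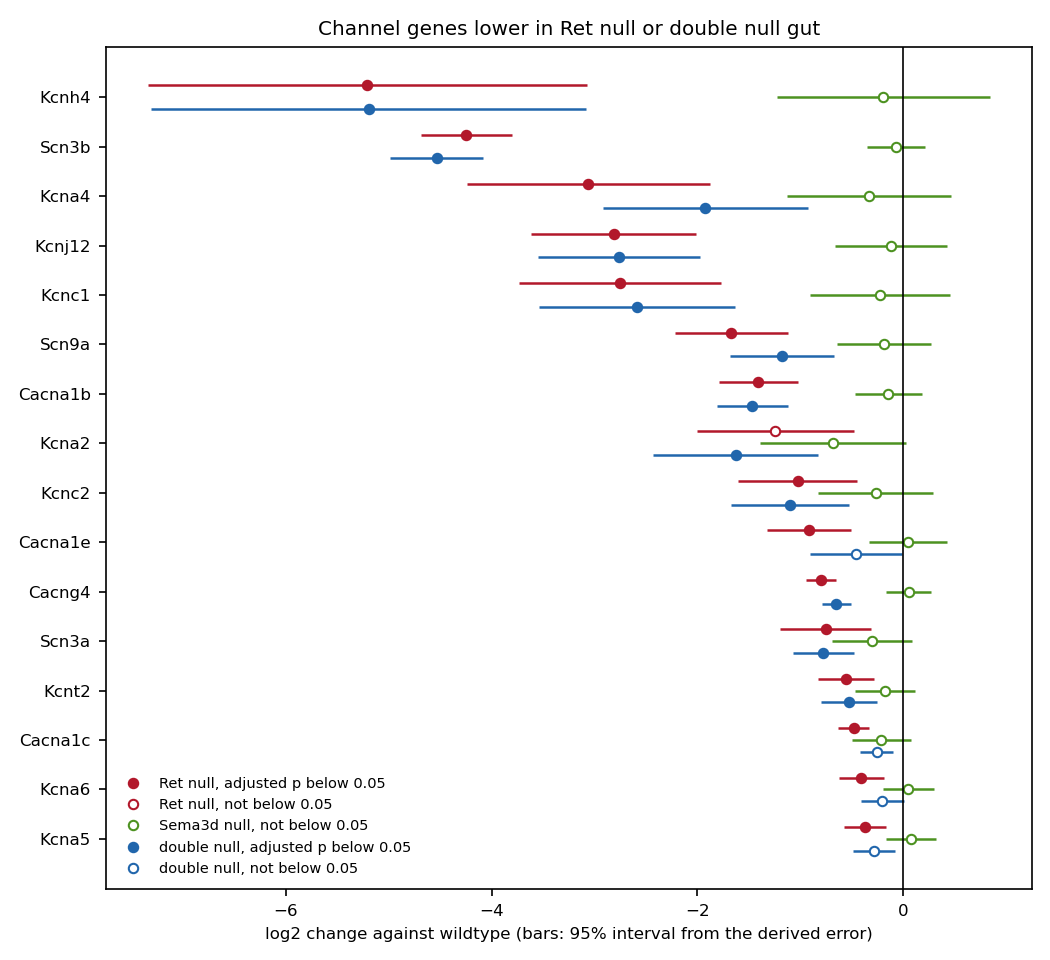
Log2 change against wildtype of 16 channel genes with a bounded fit that were called lower in Ret null or double null gut, with 95% intervals from the derived error; filled points have an adjusted p below 0.05. Scn3b, Kcnj12 and Kcnc1 lie far to the left in both genotypes that lack Ret, and all 16 Sema3d null points are open.

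Among Kv pore subunits, Kcnq3, a subunit of the M-current channel that restrains repetitive firing, was at 220 normalised counts in wildtype, 192 in Ret null, 190 in Sema3d null and 251 in double null gut in the authors' deposited table of all 24 guts. Its Ret null change was -0.20 ± 0.18 log2, with an adjusted p of 0.94 in the authors' fit. Kcnq5, also of the M-current, gave -0.16 ± 0.12 in the authors' deposited table (adjusted p = 0.93), so neither was called. Not every M-current subunit is reported here by name, and these values do not speak for the M-current genes as a set.

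The Kv calls included rapid delayed rectifiers and members of the Shaker family. Kcnc1 and Kcnc2 encode fast delayed rectifiers that permit rapid firing. Kcnc1 fell by 2.75 ± 0.50 log2 from a wildtype level of 14.3 normalised counts (adjusted p = 3.5e-06), and Kcnc2 by 1.03 ± 0.29 from 25.5 (adjusted p = 0.020), both in the authors' deposited Ret null table. Of the Kcna, or Shaker, family, Kcna4, which gives a rapidly inactivating current, fell by 3.06 ± 0.60 from 10.8 normalised counts in the authors' deposited table (adjusted p = 3.3e-05). Kcna6 fell by 0.41 ± 0.11 (adjusted p = 0.011) and Kcna5 by 0.37 ± 0.11 (adjusted p = 0.020), from the higher levels of 166 and 180 normalised counts in the authors' deposited table. Kcna2, an axonal delayed rectifier, gave -1.24 ± 0.39 with an adjusted p of 0.054 in the authors' deposited table and was not called. Kcnh4, of the ether-a-go-go family, had a fitted level of 5.93 in wildtype and 0.16 in Ret null gut, a fall of 5.21 ± 1.09 log2 whose 95% interval runs from -7.34 to -3.08. The most abundant Kv pores per kb, Kcnh2, Kcng1 and Kcnd3, were not called, at 0.13 ± 0.06, 0.26 ± 0.15 and -0.12 ± 0.16 log2. Of the 13 Kv accessory subunits, the smallest p in the authors' deposited Ret null table belonged to Kcnab2, a cytoplasmic beta subunit, at -0.20 ± 0.13 log2 (adjusted p = 0.82).

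**Figure D2:**
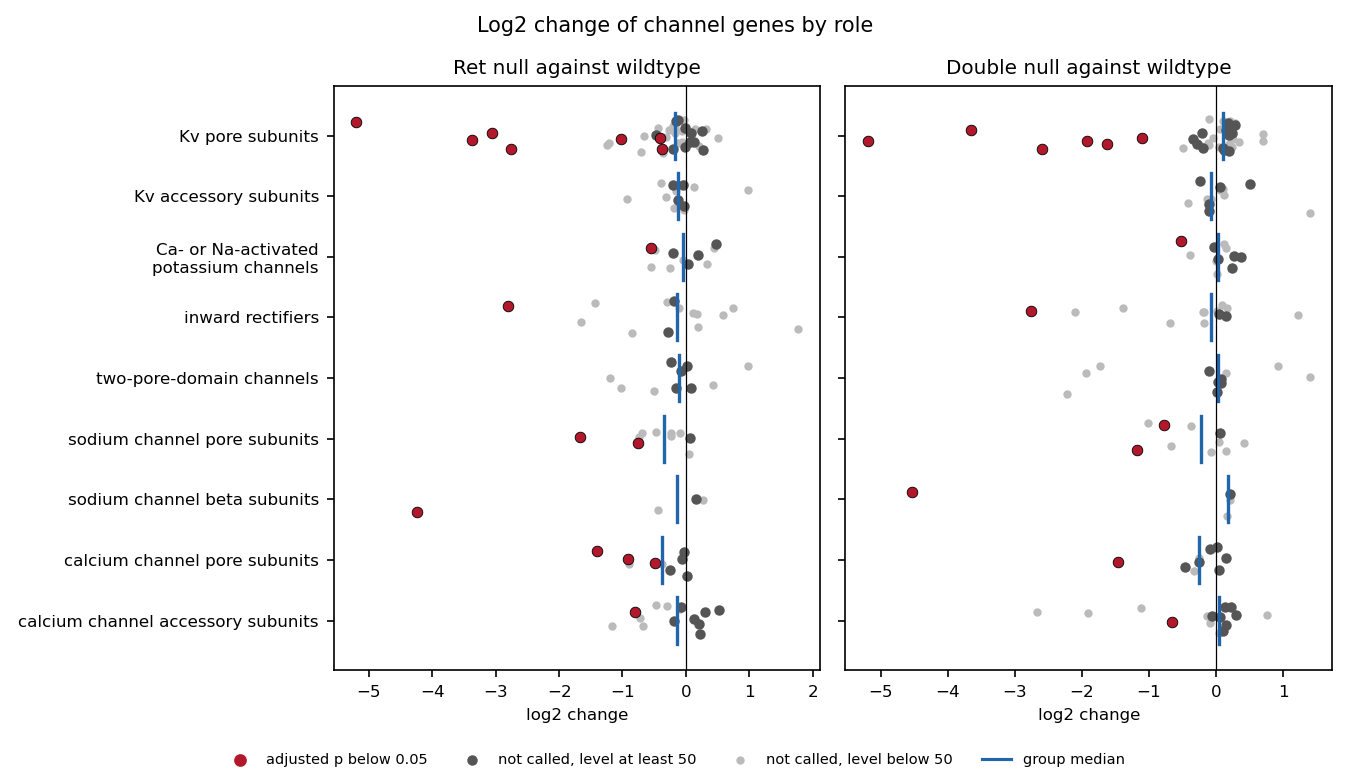
Log2 change of each channel gene with a bounded fit, by role, in Ret null (left) and double null gut (right); red points have an adjusted p below 0.05 and the blue bar is the group median. Called genes lie to the left of 0, and the medians of all 9 roles lie between -0.37 and 0.18.

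Sodium channels differed by subunit. Scn3b stood at 115 normalised counts in wildtype, 6.07 in Ret null, 109 in Sema3d null and 4.92 in double null gut in the authors' deposited table of all 24 guts. Only the genotypes lacking Ret were low. In the authors' deposited Ret null table it fell by 4.24 ± 0.23 log2 (adjusted p = 2.85e-76), leaving 5.28% of wildtype (95% interval 3.89 to 7.17%). Scn2b, the most abundant beta subunit at 40.2 normalised counts per kb, stood at 192, 214, 177 and 221 normalised counts in wildtype, Ret null, Sema3d null and double null gut, and its Ret null change of 0.16 ± 0.12 was not called in the authors' deposited table (adjusted p = 0.89). Scn4b, at 3.11 normalised counts in wildtype, was not called either.

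Of the sodium pores, Scn9a, the channel best known from peripheral sensory and autonomic neurons, fell by 1.67 ± 0.28 log2 in the authors' deposited Ret null table (adjusted p = 2.4e-07), which left 31.4% of wildtype. Scn3a, the pore that predominates in embryonic neurons, fell by 0.75 ± 0.23 in the authors' deposited table (adjusted p = 0.036), and 59.4% of it remained. Scn8a, expressed at 178 normalised counts in wildtype, was at 186, 185 and 184 in the other 3 genotypes. Its Ret null change was 0.07 ± 0.13 log2 and was not called. Scn2a1, another neuronal pore, gave -0.09 ± 0.20 and was not called. The sensory neuron marker list, which includes Scn10a, had none of its 5 measured genes called in Ret null gut (1 at an unadjusted p below 0.05 in the authors' DESeq fit).

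Among calcium channel pores, Cacna1b, the N-type channel that admits calcium for transmitter release, had fitted levels of 104 normalised counts in wildtype, 39.4 in Ret null, 94.2 in Sema3d null and 37.8 in double null gut. It fell by 1.41 ± 0.20 log2 in the authors' deposited Ret null table (adjusted p = 8.2e-11), leaving 37.6% (95% interval 28.9 to 49.1%). Cacna1a, the P/Q-type channel with the same presynaptic role, was at 201, 192, 192 and 188 normalised counts in the 4 genotypes, with a Ret null change of -0.07 ± 0.10 that was not called in the authors' deposited table (adjusted p = 1). Cacna1e, the R-type pore, fell by 0.92 ± 0.21 in the authors' deposited table (adjusted p = 0.00065). Cacna1c, the L-type pore of smooth muscle and heart, fell by 0.48 ± 0.08 (adjusted p = 3.3e-08) from 593 normalised counts in the authors' deposited table, while Cacna1d, another L-type pore, gave 0.02 ± 0.07. The T-type pores Cacna1h and Cacna1g, the most abundant per kb, gave -0.04 ± 0.09 and -0.25 ± 0.16 and were not called.

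Calcium channel accessory subunits held 2 calls, both of gamma subunits. The group was taken by symbol, and whether its members act in calcium channels here was not tested. Cacng4 stood at 539 normalised counts in wildtype, 309 in Ret null, 557 in Sema3d null and 343 in double null gut. Its fall of 0.80 ± 0.07 log2 (adjusted p = 3.69e-25 in the authors' deposited Ret null table) left 57.4% of wildtype, a far larger share than for Scn3b. Cacng2, also called stargazin, was fitted at 2.68 normalised counts in wildtype and at about 0 in both genotypes lacking Ret in the authors' deposited tables (adjusted p = 0.014 and 0.015), so no fold is given. Cacng7 was at 601, 738, 711 and 666 normalised counts in wildtype, Ret null, Sema3d null and double null gut, and its Ret null change of 0.30 ± 0.13 was not called in the authors' deposited table (adjusted p = 0.41). With a higher level in Ret null gut, 6 channel genes had an unadjusted p below 0.05 in the authors' deposited table, and 4 of them were accessory calcium channel subunits, with Cacng8 the largest at 0.52 ± 0.18 (adjusted p = 0.15).

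The remaining potassium channels held 2 calls in the authors' deposited Ret null table. Kcnj12, a strong inward rectifier that holds the resting potential, fell by 2.81 ± 0.41 log2 from 22.2 normalised counts in the authors' fit (adjusted p = 8.2e-10), leaving 14.2%. In the fit of all 24 guts Kcnj12 stood at 22.6 normalised counts in wildtype, 3.23 in Ret null, 20.7 in Sema3d null and 3.43 in double null gut, low in both genotypes lacking Ret. Kcnj8 and Kcnj2, the inward rectifiers of highest level, were not called, at -0.29 ± 0.15 and -0.19 ± 0.11. Kcnt2, a sodium-activated channel, fell by 0.55 ± 0.14 in the authors' fit (adjusted p = 0.0038), leaving 68.2%. Kcnma1, the large-conductance calcium-activated pore, gave -0.48 ± 0.22 in the authors' fit (adjusted p = 0.46), and the small-conductance Kcnn3 gave -0.21 ± 0.10 (adjusted p = 0.55). Kcnk channels carry background current and none was called. Kcnk1, Kcnk3 and Kcnk5, the highest per kb, gave 0.08 ± 0.11, -0.23 ± 0.51 and -0.08 ± 0.11, and the smallest p in the authors' deposited table was that of Kcnk4 (adjusted p = 0.83), fitted at 0.50 normalised counts in wildtype and about 0 in Ret null gut.

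**Figure D3:**
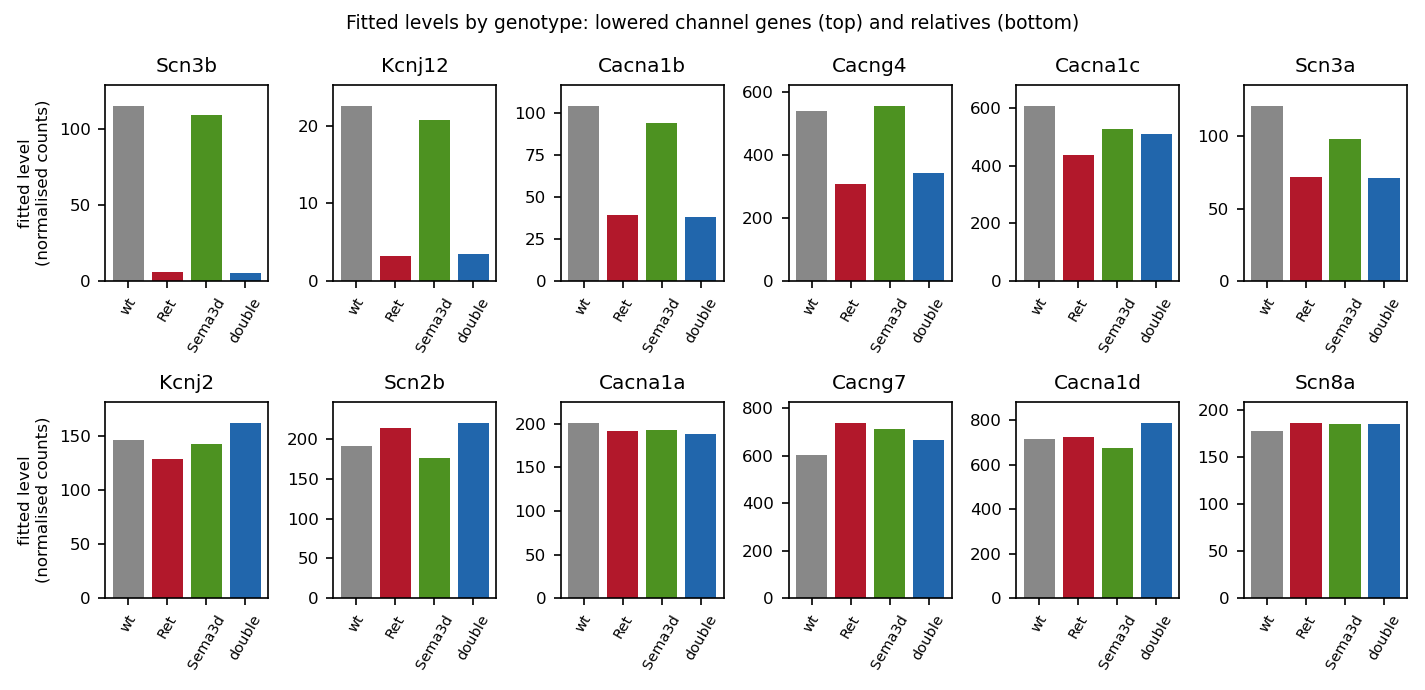
Fitted level (normalised counts, from the table of all 24 guts) in the 4 genotypes for 6 called channel genes (top) and 6 relatives that were not called (bottom); bars start at 0 and have no error bar because the table gives no value per gut. Scn3b, Kcnj12 and Cacna1b are low in both genotypes lacking Ret, while Kcnj2, Scn2b and Cacna1a are not; the relatives were chosen after their values were seen.

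In double null gut, 14 of the 129 channel genes were lower and 0 were higher. In the authors' deposited table this is 10.9%, beside 1.87% of all rows lower and 0.231% higher. The median over channel genes with a bounded fit was 0.03 log2, beside 0.01 over all rows, so the median of the family lay near 0. At an unadjusted p below 0.05, 20 channel genes were lower and 1 higher, against 3.99% and 2.72% of all rows. By level, 6 of 51 channel genes at 50 or more were called lower (2.6% of all rows of that level), 6 of 35 between 10 and 50 (3.62%) and 2 of 43 below 10 (0.343%). Of the 14, 13 were also called in the Ret null table, which is 92.9% of the double null list and 76.5% of the Ret null list. The 2 comparisons share the same 6 wildtype guts. Their values stood side by side at -4.24 and -4.53 log2 for Scn3b, -2.81 and -2.76 for Kcnj12, -2.75 and -2.59 for Kcnc1, -1.41 and -1.47 for Cacna1b, and -1.03 and -1.10 for Kcnc2, Ret null first. Scn3a (-0.75 and -0.78), Cacng4 (-0.80 and -0.65) and Kcnt2 (-0.55 and -0.53) were also close. Kcnh4 gave -5.21 and -5.19, Scn9a -1.67 and -1.18, and Kcna4 -3.06 and -1.92. Kcna2 was called in double null gut alone, where it fell by 1.63 ± 0.41 log2 in the authors' deposited table (adjusted p = 0.0046).

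A further 4 genes were called in Ret null gut and not in double null gut. In the authors' deposited double null table Cacna1c was at -0.26 ± 0.08 log2 (adjusted p = 0.070), Kcna5 at -0.28 ± 0.10 (adjusted p = 0.24), Kcna6 at -0.20 ± 0.11 (adjusted p = 0.79) and Cacna1e at -0.46 ± 0.23 (adjusted p = 0.72). A direct test of double null against Ret null gut is not among the comparisons of the tables. In double null gut all 10 neuron markers were again lower, with a median of -5.01 log2 and a summed level of 401 against 3148 normalised counts, as were 7 of 8 glia and crest progenitor markers. Of 6 endothelium markers, 4 were higher there.

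Of those 4 genes, 3 lie on mouse chromosome 6 near Ret. The genes within 20 Mb of Ret were Cacna1c at 1.00 Mb, Cacna2d4 at 1.04 Mb, Kcna5 at 8.34 Mb, Kcna1 at 8.45 Mb and Kcna6 at 8.54 Mb, by GENCODE M21 positions on GRCm38. Of these 5, 3 were lower in Ret null gut and 0 in double null gut, where 2 had an unadjusted p below 0.05 in the authors' DESeq fit. Over all rows within 20 Mb of Ret, Ret included, in the authors' deposited tables, 3.3% were called lower in Ret null and 2.84% in double null gut, and among those of level 50 or more 6.01% and 4.28%. Kcna1, between Kcna5 and Kcna6, was at 0.27 ± 0.21 log2 in Ret null gut and was not called. Loss of Ret and the strain origin of the linked stretch of chromosome 6 cannot be told apart for these genes in either genotype lacking Ret. Without the channel genes linked to Ret or Sema3d, 14 channel genes were lower in Ret null gut and 14 in double null gut. The 3 channel genes within 20 Mb of Sema3d on chromosome 5 were Cacna2d1, Kcnh2 and Kcnk3, and none was called in any comparison.

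**Figure D4:**
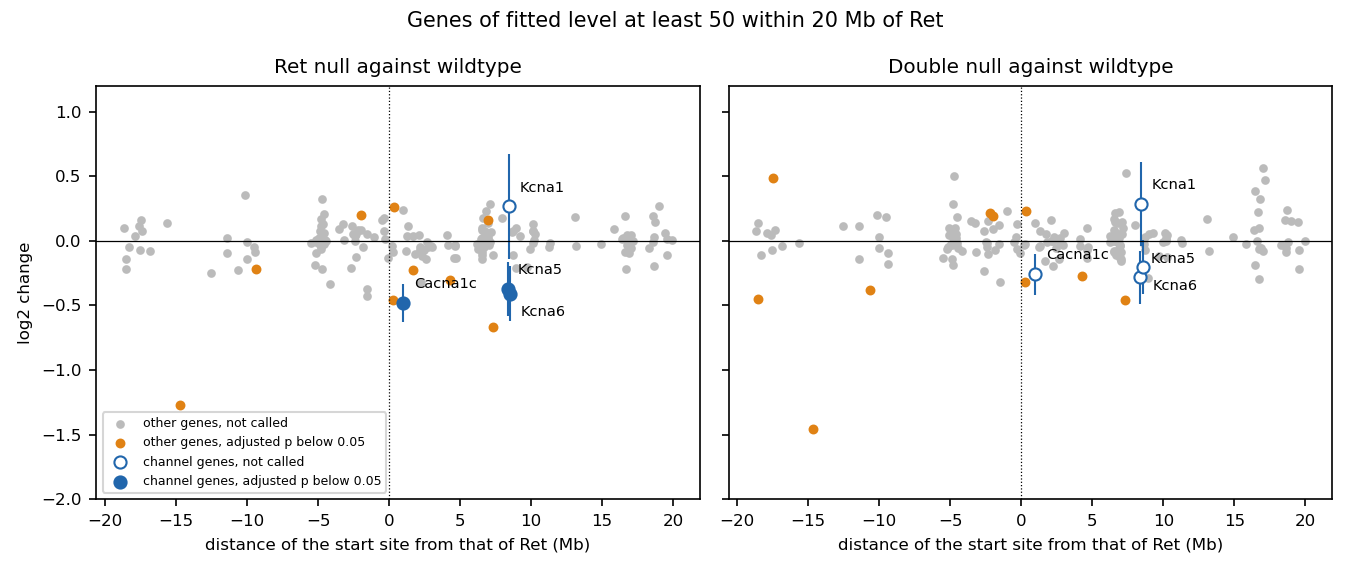
Log2 change of genes fitted at 50 normalised counts or more against the distance of their start site from that of Ret (Mb), in Ret null (left) and double null gut (right); blue marks are channel genes with 95% intervals, orange marks are other called genes, and 3 points lie outside the drawn range. Cacna1c, Kcna5 and Kcna6 are filled (called) on the left and open on the right.

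In Sema3d null gut, 0 of the 129 channel genes were called in the authors' deposited DESeq table, where 0.0202% of all rows were lower and 0.0202% higher. At an unadjusted p below 0.05 there were 3 channel genes, against 4.53% of all rows. These were Cacng1, fitted at about 0 in Sema3d null gut, Kcnk9 at 2.80 ± 1.34 log2 from below 1 normalised count, and Cacng8 at 0.40 ± 0.20. The median was -0.04 log2, beside 0.01 over all rows. Of genes reduced in Ret null gut, the Sema3d null changes were -0.07 ± 0.14 log2 for Scn3b, -0.12 ± 0.28 for Kcnj12 and -0.14 ± 0.17 for Cacna1b. Their 95% intervals reached down to -0.35, -0.67 and -0.47, so larger reductions lie outside them. None of the 10 neuron markers was called in Sema3d null gut by the authors' DESeq fit, 0 had an unadjusted p below 0.05, and their median was 0.01.

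The interaction term asks whether the double null level departs from what the 2 single null changes would give together on the log2 scale. In the authors' deposited DESeq table of all 24 guts, 0 of 129 channel genes were called, beside 0.129% of all rows with a positive and 0.0343% with a negative interaction. The smallest adjusted p was 0.49. At an unadjusted p below 0.05 there were 9 channel genes, 8 positive and 1 negative, against 4.07% and 2.72% of all rows. Kcnq3 gave 0.60 ± 0.23 log2, since its level was 220 in wildtype, 192 in Ret null and 190 in Sema3d null gut but 251 in double null gut. Cacna1c gave 0.44 ± 0.17 from levels of 609, 436, 526 and 509 normalised counts, so the double null level stood between those of wildtype and Ret null gut. Cacng8, the negative one, gave -0.61 ± 0.24. Others of the 9 were Kcnma1 (0.72), Kcna3 (0.77), Kcnj2 (0.37), Cacna1g (0.40) and Kcnh7 (0.76). They were picked after the values were seen, and not all 9 are named. Among strongly reduced genes, Scn3b (-0.23 ± 0.40), Kcnj12 (0.21 ± 0.59) and Cacna1b (0.09 ± 0.28) had interaction coefficients smaller than their errors. Those of Kcna4 (1.48 ± 0.80) and Scn9a (0.68 ± 0.37) were larger than their errors, and neither was called. Over the 125 bounded fits the median was 0.16 log2, beside 0.00 over all rows, and it was 0.01 for the 52 channel genes at a level of at least 50.

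**Figure D5:**
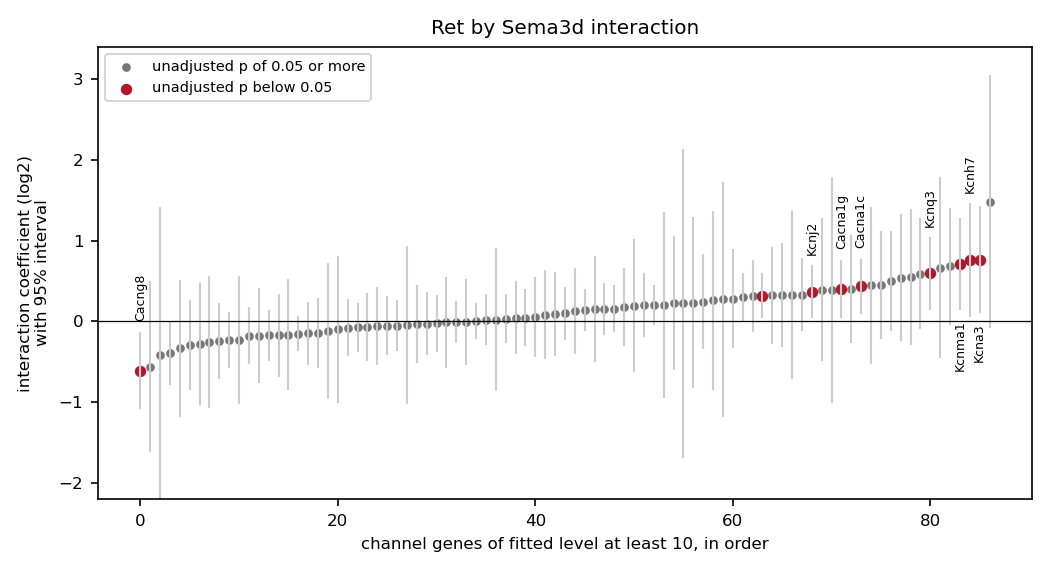
Interaction coefficient (log2) with its 95% interval for channel genes of fitted level at least 10, in order of size; red points have an unadjusted p below 0.05. No point passed an adjusted p of 0.05, and the 8 red points above 0 have intervals that start close to 0.

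Genes that work with these channels without belonging to their families were counted from a list of 34, of which 32 were measured: HCN pacemaker channels, the sodium leak channel and its subunits, ankyrins, intracellular fibroblast growth factors, sulfonylurea receptors and calcium release channels. Of the 32, 4 were lower and 0 higher in each genotype lacking Ret, where 2.27% of all rows were lower in Ret null and 1.87% in double null gut, and none was called in Sema3d null gut or for the interaction (1 and 4 at an unadjusted p below 0.05 in the authors' deposited DESeq tables). Nalcn, the sodium leak channel that sets neuronal resting potential, fell by 2.25 ± 0.26 log2 in Ret null and 2.31 ± 0.27 in double null gut. Unc79, a subunit of the same complex, fell by 1.49 ± 0.25 and 1.32 ± 0.24. Fgf13, which binds sodium channel pores, fell by 0.79 ± 0.11 and 0.75 ± 0.10, and Ank2, which anchors channels to the cytoskeleton, by 0.65 ± 0.08 and 0.42 ± 0.08. The list was chosen with earlier results known.

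The promoters of the called genes were read from RefSeq (GRCm38.p6) as 250 bases before each start, and 6 motifs were counted in them. Of the 18 genes called lower in either genotype lacking Ret, 14 had an entry, with 19 start sites among them. The hexamer CAGCTG, an E-box that reads the same on both strands, occurred in 25.4% of 130 channel gene promoters, 13.1% of all 18009 promoters and 7 of the 19 called promoters (Cacna1b, Cacng2, Kcna2 and Kcnc2, some windows of which overlap). Counted once per gene, it was in 27 of 94 channel genes (28.7%), 15.4% of all 14274 genes and 4 of the 14 called genes. The GC box GGGCGG, sought like all the motifs on both strands, occurred in 41.5% of channel gene promoters and 49.8% of all, but in 56.4% of channel genes and 55.6% of all genes. TATAAA occurred in 3.85% of channel gene promoters and 7.89% of all, and in 5.32% and 9.46% of genes. The other motifs sought, the right and left parts of the RE1 site and a paired homeodomain site, occurred in 8.46%, 0.769% and 0% of channel gene promoters and in 6.15%, 0.322% and 0.222% of all. Per gene these were 11.7%, 1.06% and 0% of channel genes and 7.43%, 0.392% and 0.273% of all genes. Among the 19 called promoters the GC box occurred in 6, each of a different gene. TATAAA, both RE1 parts and the paired homeodomain site occurred in 0 of the 19. The median GC content was 58% for channel genes and for all promoters. The 120 bases before the start of Cacna1b (chr2:24763153-24763272, minus strand) and of Kcnc2 (chr10:112271001-112271120, plus strand) are given as examples with an E-box near the start, and capitals mark the E-box and the GC box.
Cacna1b: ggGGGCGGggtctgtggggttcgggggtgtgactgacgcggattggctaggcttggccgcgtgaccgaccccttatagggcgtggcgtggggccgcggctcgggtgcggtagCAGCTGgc
Kcnc2: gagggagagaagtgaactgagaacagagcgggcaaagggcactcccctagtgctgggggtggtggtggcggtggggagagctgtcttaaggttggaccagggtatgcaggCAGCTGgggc
These matches describe letters only, and binding at them was not measured.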

How the data were processed

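Each of the 24 libraries was one gut, and 12 guts (6 per genotype) entered each comparison with wildtype. The build GRCm38 (mm10) and the tools DESeq 1.24.0, RSEM 1.2.31, STAR, Trimmomatic 0.36 and FastQC 0.11.5 are listed, with no roles, per the submitters' processing notes. The authors deposited, per the file headers, coefficients for intercept, sex and genotype, which were read as log2. They also deposited the model deviances (used as a score of fit), and p-values with their adjusted p-values. The interaction table's coefficients were also read as log2, a few of them from fits without a bound. Counts per gut were not analysed here. The headers do not name the base of the logarithm, and base 2 was taken because the wildtype levels then sum to a total below the depth aimed at per the labels' protocols, while the natural base gives one far above it. The gene name and type columns of the Ret null table have exchanged headers and were read by content.

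The error after ± is the absolute coefficient over the root of the drop in deviance, and 95% intervals are 1.96 errors. The p-values of the authors matched a chi-square tail of that drop (1 degree of freedom) to within 4.91e-09. Adjusted p listed as 0 was recomputed from the deviances. Coefficients beyond 15 log2 were treated as unbounded. Data were simulated for Ret null against wildtype (2000 genes, 200 changed), from genes of fitted level at least 10 and with the dispersion taken as known. A fit of the same form called 91.2% of changes of 1 log2 unit, and intervals held the truth for 95.5% of genes. For the interaction these shares were 87.4% and 94.7%. The simulation does not cover channel genes below a level of 10, such as Kcnh4, nor the authors' own estimate of the dispersion.

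Exon lengths and positions came from GENCODE M21. The libraries are stranded, but no source used here gives the strand setting of the counting, so reads of Kcnd3, Kcnq1, Kcnab3 and Kcnmb4 and of their antisense genes may not be separated; none of these was called. Named genes are the called members, the smallest p of each role, members near Ret or Sema3d and extremes of sex; relatives and the most abundant genes were added after their values were seen. Some genes that the rule names are counted but not reported here by name. The members and lists were chosen with earlier results of these data known. Alternatives were other thresholds, other sets of rows for the adjustment, and leaving out unbounded fits or linked genes. Analyses used Python 3.11.15, pandas 2.3.3, numpy 2.4.6, scipy 1.17.1 and matplotlib 3.10.9.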

Additional observations from a re-analysis of the deposited data

How the results depend on the processing

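The channel gene counts kept their direction under every alternative run. With the adjustment repeated over rows of fitted level at least 50, 10 channel genes were lower in Ret null gut (17 as reported) and 7 in double null gut (14 as reported), because only 49 and 51 channel genes were then tested. Under the other alternatives the count lay between 12 and 18 in Ret null and between 12 and 15 in double null gut, and it was 0 for Sema3d null gut and for the interaction under all of them. Leaving out channel genes linked to Ret or Sema3d was chosen after seeing the data. Of 401 alternative values of named genes, 392 kept their side of the threshold, 5 lost the call (Kcna5, Kcna6, Kcnc2 and Scn3a in Ret null and Kcnc2 in double null gut, all at a threshold of 0.01) and 4 gained one (Kcna2 in Ret null and Cacna1c in double null gut). Cacng2, whose fit has no bounded change and which is not among these values, also lost its call at 0.01 in both genotypes lacking Ret. No alternative altered the coefficients or unadjusted p-values. The 401 values include those for Sema3d null gut and the interaction, which lay far from every threshold used. The smallest adjusted p of a channel gene there was 0.98 and 0.49 in the authors' deposited DESeq tables. The median over channel genes in Sema3d null gut was -0.04 log2, and 0.04 at a level of at least 50. No paired analysis was possible because the tables hold fitted coefficients per comparison and no values per gut, and leaving out each replicate and the replicate block were not run for that reason. The tables show no depth per library, and below a level of 10 normalised counts the errors exceed most changes.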

Other observations

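Antisense genes with a channel prefix in their symbol numbered 5. Kcnq1ot1, the noncoding transcript antisense to Kcnq1, was fitted at 2862 normalised counts in wildtype gut in the authors' deposited Ret null table and gave -0.00 ± 0.09 log2 there, 0.03 ± 0.09 in Sema3d null and 0.11 ± 0.07 in double null gut. Kcnmb4os2 was at 14.7 normalised counts and gave 0.38 ± 0.31 in the authors' deposited Ret null table (adjusted p = 0.93). Kcnd3os, Kcnmb4os1 and Kcnab3os were at about 10 normalised counts or below, and none of the 5 was called.

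The sex coefficient (male against female, log2) has no p-value in the authors' deposited tables. Among channel genes of level 50 or more, it was highest for Kcnb2 at 0.34 in the Ret null table. In the double null table Kcnk3, an acid-sensitive background potassium channel, had 1.36, beside 0.19 in the Ret null and 0.43 in the Sema3d null table. Its genotype errors were also wide for its level of 215 normalised counts, at 0.51 in Ret null and 0.62 in Sema3d null gut.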
